A study of Mus musculus with 16 samples.

Results

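This account covers 9 genes of the neuronal cytoskeleton, Map1a, Map1b, Map2, Mapt, Map4, Apc, Ank2, Ank3 and Macf1, taken by gene symbol from deposited gene tables that list 20436 genes. All 9 were found, and all 9 passed the filter on low counts in every comparison. They were measured in cerebral cortex of mice aged 28 to 35 postnatal days in 4 genotypes: wild type (WT), Fmr1 single knockout (Fmr1 KO), Cpeb1 single knockout (Cpeb1 KO) and Fmr1 and Cpeb1 double knockout (Double KO). The labels give all groups the same mouse strain, FVB.129P2-Pde6b+ Tyr c-ch/AntJ. The labels do not state the sex of the animals, or whether a library comes from 1 animal or several. Fmr1 encodes FMRP, an RNA-binding protein that associates with ribosomes and whose loss underlies fragile X syndrome, and Cpeb1 encodes a protein that binds a U-rich element in 3' UTRs and acts on poly(A) tails. The tissue was homogenised in a buffer with cycloheximide and harringtonine, which stop ribosomes, and each lysate was split for cytoplasmic RNA-seq and for ribosome profiling, which sequences the mRNA fragments covered by ribosomes (footprints). Each genotype has 2 libraries per assay, so there are 8 RNA-seq and 8 footprint libraries. The comparisons ask whether the RNA, the footprints, or the footprints relative to the RNA of these genes differ when either protein or both are missing.

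Microtubule-associated proteins bind along the microtubule lattice and affect its stability and spacing. MAP2 is the classical marker of dendrites, tau (Mapt) is found mainly in axons, and MAP1A and MAP1B are each made as a polyprotein that is cleaved into a heavy and a light chain. Map1b is among the best known mRNAs bound by FMRP, and its protein has been described as raised without FMRP. MAP4 is the member found in most tissues. APC binds the growing ends of microtubules and also belongs to the complex that degrades beta-catenin. MACF1 is a giant spectraplakin that joins microtubules to actin. Ankyrin-B (Ank2) and ankyrin-G (Ank3) tie membrane proteins to the spectrin skeleton, and ankyrin-G organises the axon initial segment.

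Positions are those of the RefSeq gene table of assembly GRCm38.p6, which is the mm10 build that the submitters' processing notes name. Map1a (NCBI gene 17754) spans positions 121289590 to 121310832 of chromosome 2, and Map1b (17755) positions 99421464 to 99516602 of chromosome 13. Map2 (17756) spans positions 66175202 to 66442583 of chromosome 1, Mapt (17762) 104229409 to 104332090 of chromosome 11, and Map4 (17758) 109929841 to 110083954 of chromosome 9. Apc (11789) lies on chromosome 18 from 34220297 to 34322190, and Macf1 (11426) on chromosome 4 from 123349633 to 123687802. Ank2 (109676) spans positions 126921607 to 127500347 of chromosome 3, and Ank3 (11735) positions 69533486 to 70027436 of chromosome 10. Counts were made over listed transcripts whose lengths appear to be coding lengths. Of 17098 genes with a constant RNA-seq length, 99.2% had a length that is a multiple of 3, and in 99.3% the footprint length was 57 nt shorter. The mean RNA-seq length was 17475.1 nt for Macf1, 8898.7 for Map1a, 8526 for Apc, 7392 for Map1b, 5257.3 for Ank3, 3092.1 for Ank2, 1404.7 for Map2, 1144.9 for Mapt and 804.2 for Map4. Only 1 or 2 transcripts were listed for each of Map1a, Map1b, Map2, Apc, Ank2 and Macf1, 4 for Map4, 5 for Mapt and 9 for Ank3, so the levels describe those transcripts and not every isoform of a gene.

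RNA-seq libraries held 5423925 to 10246482 estimated counts and footprint libraries 16239703 to 24973757. The 9 genes took 0.725% to 0.98% of the RNA-seq counts and 0.688% to 0.765% of the footprint counts. The labels were checked on the targeted genes: Fmr1 footprints stood at 94.8 to 107.7 CPM (counts scaled to the library total) in the 4 libraries with Fmr1 and at 5.33 to 8.69 in the 4 without, and Cpeb1 footprints at 33.4 to 36.8 and 7.3 to 7.73. All 7 neuron markers were detected in every library, with sums of 4032 to 4673 CPM in RNA. Astrocyte markers summed to 370.7 and 433 CPM of RNA in WT and 467.7 to 532.9 in the knockouts. Markers of striatal neurons summed to 235.2 and 158.7 CPM of RNA in the Cpeb1 KO and 295.9 to 406.1 elsewhere. In footprints the 5 microglial markers summed to 17.6 and 23.8 CPM in the Double KO and 26.8 to 38 elsewhere. The other assay did not show the same differences. Astrocyte footprints summed to 530.1 and 615.7 CPM in WT and 485.6 to 592.3 in the knockouts. Striatal footprints summed to 579 and 562 CPM in the Cpeb1 KO and 515 to 723.6 elsewhere. Microglial RNA summed to 29.4 and 36.7 CPM in the Double KO and 22.4 to 40.9 elsewhere. Choroid plexus markers varied most, with sums of 12.4 to 227 CPM of RNA. The part of these differences in the results below was not tested. Fewer cells of a type and less RNA per cell cannot be told apart in such tissue libraries.

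All 9 genes belonged to the upper part of the cortical transcriptome, and the RNA order differed from the footprint order. Genes are compared here in TPM, the deposited scale, which divides by transcript length and by the library total. Mean RNA over the 8 libraries was highest for Map2, with 491 ± 29.5 TPM (SD, n = 8 libraries), then Map1b with 458 ± 59.1, Ank2 with 338 ± 43.4, Map1a with 329 ± 87.6, Mapt with 238 ± 23.7, Map4 with 166 ± 36, Ank3 with 147 ± 24.4, Apc with 130 ± 16.7 and Macf1 with 107 ± 13.8. Each neighbouring pair in that order overlapped in its range over libraries. Compared within a library, Map1b stood above Ank2 and Apc above Macf1 in 8 of 8, Map1a above Mapt, Mapt above Map4 and Ank3 above Apc in 7, Map2 above Map1b and Map4 above Ank3 in 6, and Ank2 above Map1a in 4. The first place of Map2 rests on its deposited length of 1404.7 nt. Its median RNA was 482.1 CPM, against 2308 CPM for Map1b, whose length was 7392 nt. Whether the transcripts listed for Map2 and Ank2 span their full coding length could not be checked. Even the lowest gene in TPM, Macf1, stood above 83.2% of the genes tested in RNA-seq. In footprints the order was Map4 with 704 ± 44.1 TPM, Mapt with 628 ± 25.2, Map1b with 416 ± 20.2, Map2 with 297 ± 19.6, Map1a with 233 ± 16.2, Ank2 with 117 ± 6.05, Ank3 with 62.9 ± 2.57, Apc with 27.2 ± 2.83 and Macf1 with 7.99 ± 0.732. Here no neighbouring pair overlapped in its range over the 8 libraries. Macf1 footprints stood above only 35.1% of the genes tested in footprints.

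**Figure D1:**
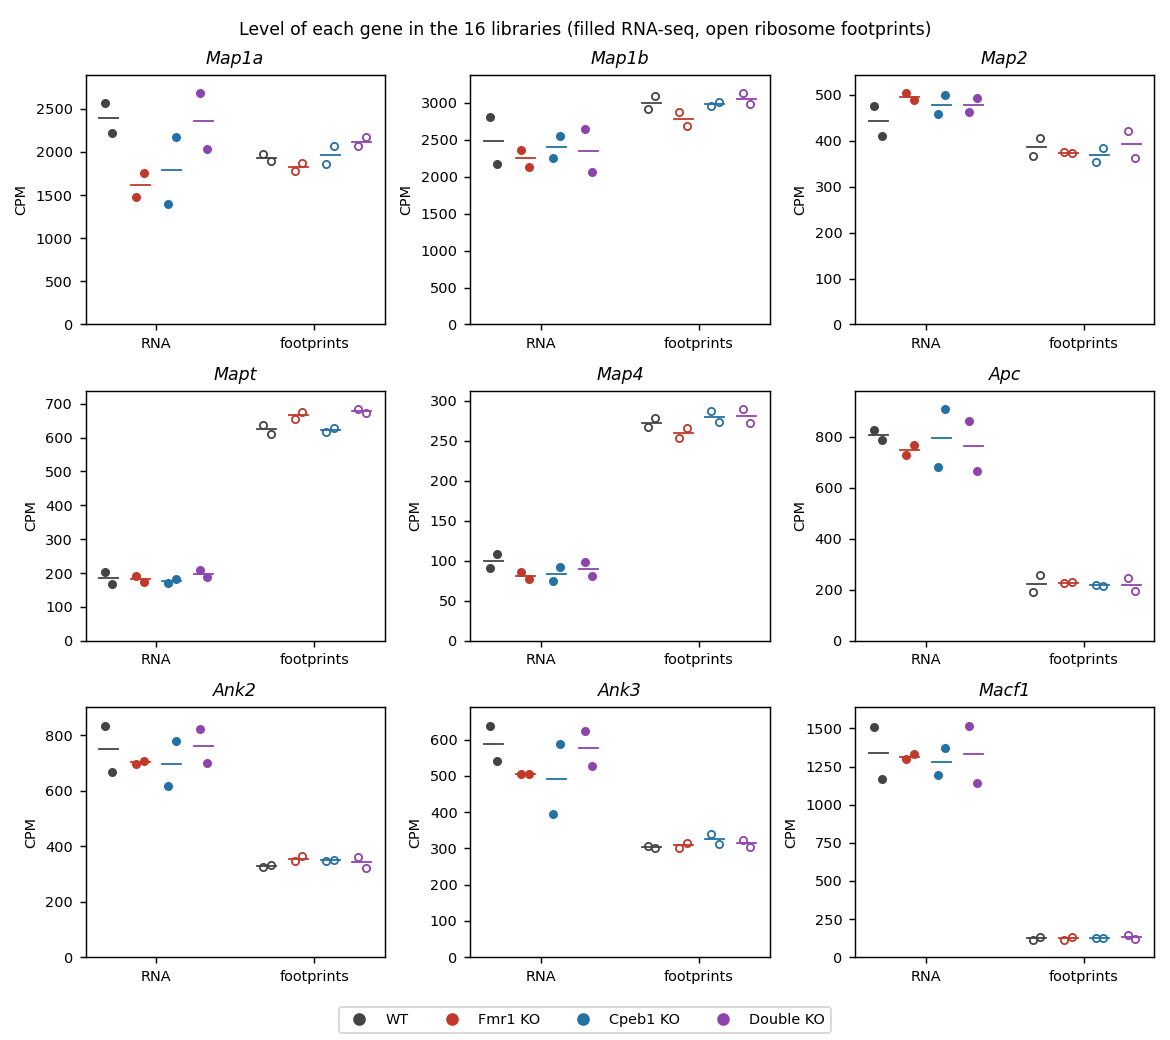
Level of the 9 genes in CPM (TMM scaled within an assay) in every RNA-seq library (filled points) and footprint library (open points) by genotype, with the mean of 2 libraries as a bar and the axis from 0. Map1a RNA runs from 1401 to 2681 CPM while its footprints run from 1779 to 2169, and Map1b, Mapt and Map4 have more footprint CPM than RNA CPM in every pair.

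Translational efficiency, the ratio of footprint TPM to RNA TPM of the 2 libraries of a genotype and replicate number, spanned a 57.6-fold range among the 9 genes. Map4 averaged 2.11 ± 0.373 on the log2 scale (SD, n = 8 pairs) and Mapt 1.41 ± 0.119, above 99.9% and 99.1% of 13027 genes. All genes had a median of -0.624, with the 5th and 95th percentiles at -2.45 and 0.783. Map1b averaged -0.131 ± 0.164, Map1a -0.456 ± 0.334 and Map2 -0.729 ± 0.135, above 70.6%, 57.2% and 45.6% of all genes. These means include the knockouts. In the WT pairs alone Map1b averaged -0.189, Map2 -0.627 and Map1a -0.767, above 67.7%, 50.1% and 44.9%, so the order of Map1a and Map2 turned. The ankyrins lay lower, Ank3 at -1.21 ± 0.276 and Ank2 at -1.53 ± 0.189. Apc at -2.26 ± 0.196 stood above 6.86% of all genes, and Macf1 at -3.74 ± 0.18 above 0.645%. In each of the 8 pairs Macf1 was the lowest of the 9 genes, between -4.11 and -3.54. Mapt did not overlap with Map1b, Ank2 did not overlap with Apc, and Apc did not overlap with Macf1, while the other neighbouring pairs in this order overlapped.

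Efficiency fell with length over all genes, from a median of 0.128 below 600 nt to -1.7 at 5000 nt or more, so each gene was also set beside genes of its own length class. Map1b lay 1.57 above the median of the 564 genes of at least 5000 nt, above 98.6% of them, and Map1a 1.25 above it, higher than 96.1%. Ank3 stood above 72.7% of the same class, Apc above 28.5% and Macf1 above 4.43%. Mapt lay above 99.2% of the genes of 600 to 1500 nt, and Map2 above 36.6%. The classes follow the deposited lengths, which could not be checked for Map2 and Ank2. The value for Map4 rests on its deposited length, which was 688.6 to 934 nt in RNA-seq and 391.2 to 461.6 nt in footprints. As a ratio of CPM without any length it was 1.64 ± 0.182, against 1.8 ± 0.0944 for Mapt, so their order turns.

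**Figure D2:**
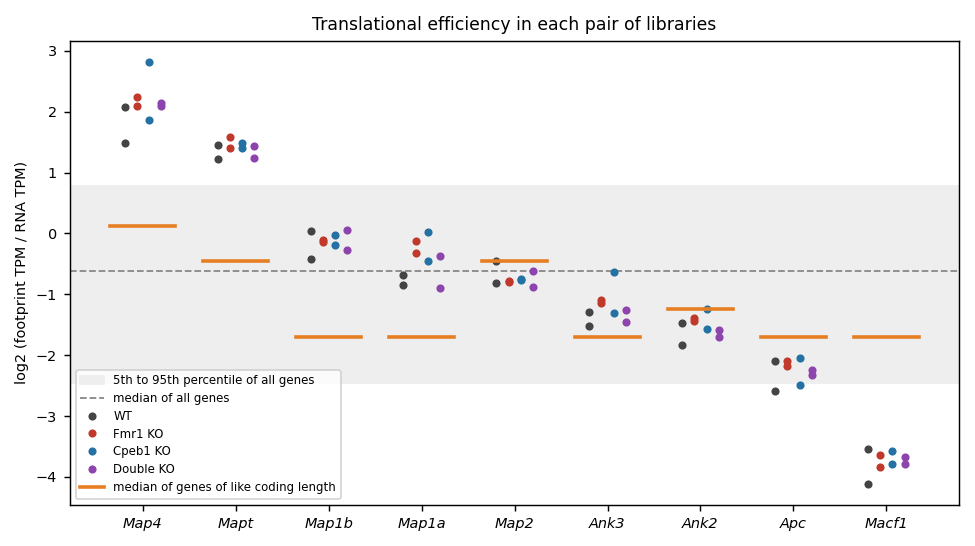
Translational efficiency (log2 of footprint TPM over RNA TPM) of each gene in the 8 pairs of libraries, 2 points per genotype, with the median of all 13027 genes (dashed), their 5th to 95th percentile (grey) and the median of genes of like length (orange bars). Mapt and Map4 lie above the grey band in every pair, Macf1 lies below it, and Map1a and Map1b sit well above the orange bar of their length class.

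The MAP1 pair held the one member whose RNA passed a test. Map1a RNA stood at 2565 and 2220 CPM in the WT libraries, 1476 and 1755 in the Fmr1 KO, 1401 and 2169 in the Cpeb1 KO, and 2681 and 2028 in the Double KO. Both Fmr1 KO libraries and 1 of the Cpeb1 KO libraries were thus below all WT and Double KO libraries, and Cpeb1 KO library 2 was not. Here and below, a separation of 2 libraries from 2 describes single genes. The share of all genes that separate in this way was not counted. The submitters' tables also set the 4 libraries of Fmr1 KO and Cpeb1 KO against the 4 of WT and Double KO, here called the pooled comparison. In it Map1a RNA averaged 1700 ± 348 CPM in the former and 2374 ± 302 in the latter (SD, n = 4 each). The change was -0.49 ± 0.12 (SE) on the log2 scale, with a 95% interval of -0.756 to -0.226 (edgeR's quasi-likelihood test with p-values adjusted by Benjamini-Hochberg, adjusted p = 0.0295). Calls at an adjusted p under 0.05 covered 7.31% of the 13287 genes in that comparison, and Map1a was the 1 call among the 9 members. The call was lost with DESeq2 (adjusted p = 0.0723) and in a model with a term for each of the 4 genotypes (edgeR, adjusted p = 0.0802). It was also lost without WT library 1, Fmr1 KO library 1, Fmr1 KO library 2, Cpeb1 KO library 1 or Double KO library 1 (edgeR, adjusted p from 0.0604 to 0.127), while the change stayed between -0.624 and -0.381 under all 15 alternatives.

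Against WT alone, Map1a RNA changed by -0.57 ± 0.20 in the Fmr1 KO (edgeR, adjusted p = 0.546) and by -0.43 ± 0.20 in the Cpeb1 KO (adjusted p = 0.46). In the Double KO the value was -0.02 ± 0.20 (edgeR, adjusted p = 0.995). Map1a footprints stood closer together: 1970 and 1891 CPM in WT, 1779 and 1871 in the Fmr1 KO, 1856 and 2073 in the Cpeb1 KO, and 2068 and 2169 in the Double KO. Their highest library was 1.22 times their lowest, against 1.91 times for the RNA. In footprints the pooled comparison gave -0.10 ± 0.06 for Map1a (edgeR, adjusted p = 0.737). Map1a footprints in the Double KO were above both libraries of WT and of the Fmr1 KO, by 0.13 ± 0.07 (adjusted p = 0.275) and 0.22 ± 0.07 (edgeR, adjusted p = 0.158). Its translational efficiency gave 0.40 ± 0.16 in the pooled comparison and did not pass (edgeR, adjusted p = 0.276). Map1a lies 1.04 Mb from Pla2g4e on chromosome 2, with 18 tested genes between them. Pla2g4e footprints stood at 9.91 and 10.7 CPM in WT, and the 6 knockout libraries had 48.9 to 61.3. Whether the position bears on Map1a was not tested.

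Map1b, the best known FMRP target of the group, was called in none of the comparisons. Its RNA stood at 2806 and 2165 CPM in WT, 2361 and 2135 in the Fmr1 KO, 2255 and 2554 in the Cpeb1 KO, and 2638 and 2061 in the Double KO. All groups overlapped with WT, whose 2 libraries span most of the whole range. Its footprints were 2910 and 3088 CPM in WT, 2869 and 2689 in the Fmr1 KO, 2953 and 3006 in the Cpeb1 KO, and 3131 and 2981 in the Double KO. Both Fmr1 KO libraries lay below both WT libraries. The footprint difference between them was -0.11 ± 0.06, with a 95% interval of -0.25 to 0.0302 (edgeR, adjusted p = 0.963). Its RNA in the same comparison gave -0.14 ± 0.14 (95% interval -0.438 to 0.162) and its translational efficiency 0.03 ± 0.16 (95% interval -0.305 to 0.361; edgeR, adjusted p = 0.976). The footprint interval, unadjusted and from 2 libraries per genotype, reaches up to 0.0302, and the interval of translational efficiency is wider. Both concern Map1b relative to the other genes of a library. They do not bear on a general rise in footprints or on protein.

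Over the 8 RNA-seq libraries the genes with log2 CPM most like Map1b were Pik3r4 with r = 0.972, Fgd3 with 0.968 and Sptbn1 with 0.964, out of 10714 genes averaging 50 counts or more. In footprints they were Sipa1l2 with 0.948, Irs1 with 0.943 and Smc2 with 0.931, among 11701 genes. These are descriptions over libraries that share depth and genotype. Of the other members Macf1 came closest to Map1b in RNA, with r = 0.883, while Map2 reached 0.151.

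Map2 was the 1 member whose RNA was higher than WT in both single knockouts. It stood at 475.3 and 411.2 CPM of RNA in WT, 504.2 and 488.9 in the Fmr1 KO, 457.9 and 498.9 in the Cpeb1 KO, and 464 and 492.5 in the Double KO. Only the Fmr1 KO lay wholly above WT, with a difference of 0.16 ± 0.11 (edgeR, adjusted p = 0.684). Map2 footprints ran from 353 to 421.9 CPM over the 8 libraries, with every genotype overlapping WT. Mapt RNA ran from 168 to 209.3 CPM, and every knockout overlapped WT, while the Double KO at 209.3 and 186.9 lay above the Cpeb1 KO at 170.8 and 182.5. Mapt footprints were 636.6 and 611.1 CPM in WT, 654.5 and 676.4 in the Fmr1 KO, 617 and 626.6 in the Cpeb1 KO, and 683 and 671.7 in the Double KO. The Fmr1 and double knockouts were above WT in both libraries, by 0.09 ± 0.06 and 0.12 ± 0.06 (edgeR, adjusted p = 0.983 and 0.305). Map4 RNA stood at 91.2 and 107.9 CPM in WT, 85.5 and 77.4 in the Fmr1 KO, 74.4 and 92.2 in the Cpeb1 KO, and 98.2 and 80.3 in the Double KO. Its RNA values against WT were -0.28 ± 0.15, -0.26 ± 0.15 and -0.15 ± 0.15 in that order (edgeR, adjusted p from 0.549 to 0.968). Map4 footprints ran from 252.8 to 289 CPM and gave -0.07 ± 0.07, 0.04 ± 0.07 and 0.05 ± 0.07 (edgeR, adjusted p from 0.764 to 1).

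For both large linkers of microtubule ends, APC and MACF1, all differences from WT in RNA and footprints were smaller than their SE. Apc RNA stood at 827.1 and 789.7 CPM in WT, 730.1 and 768.2 in the Fmr1 KO, 680.3 and 907.9 in the Cpeb1 KO, and 860.4 and 666.7 in the Double KO. Its footprints were 192.2 and 257.3 CPM in the WT libraries, which enclosed all 4 libraries of the single knockouts, at 216.8 to 229.3. Macf1 RNA stood at 1508 and 1169 CPM in WT, 1299 and 1331 in the Fmr1 KO, 1197 and 1369 in the Cpeb1 KO, and 1518 and 1143 in the Double KO, so that WT enclosed both single knockouts. Macf1 footprints ran from 114.4 to 147.9 CPM. The largest difference from WT for either gene was -0.11 ± 0.16, of Apc RNA in the Fmr1 KO (edgeR, adjusted p = 0.838), among 6 such differences for each gene.

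Among the ankyrins, Ank3 RNA had the larger pooled difference. It stood at 638.7 and 540 CPM in WT, 505.5 and 504.3 in the Fmr1 KO, 396.4 and 587.1 in the Cpeb1 KO, and 625.4 and 527.1 in the Double KO. The Fmr1 KO lay below WT and the Double KO in both libraries, and the Cpeb1 KO had the lowest library of all and another inside the WT range. The pooled comparison gave -0.23 ± 0.11 (edgeR, unadjusted p = 0.0484, adjusted p = 0.19). Ank3 footprints stayed within 301.9 to 340.7 CPM, and their pooled difference was 0.04 ± 0.06 (edgeR, adjusted p = 0.855). Ank2 RNA ran from 615.3 to 833.6 CPM with all genotypes overlapping WT, and gave a pooled difference of -0.11 ± 0.09 (edgeR, adjusted p = 0.482). Ank2 footprints were 325.1 and 332.4 CPM in WT, 345.2 and 365.1 in the Fmr1 KO, 347.6 and 349.8 in the Cpeb1 KO, and 361.9 and 322.2 in the Double KO. Both single knockouts were above WT in both libraries, by 0.11 ± 0.07 and 0.08 ± 0.07 (edgeR, adjusted p = 0.983 and 1). How many of all genes separate in this way was not counted.

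Across all comparisons the 9 genes gave no further call in edgeR. In RNA 0 members were called between each knockout and WT, and an unadjusted p below 0.05 was reached by 1, 0 and 0 members in the Fmr1, Cpeb1 and double knockouts, where calls covered 0.00753%, 0% and 0.00753% of the genes tested. DESeq2 also called 0 members in these 3. RNA of the deleted gene Cpeb1 was itself not called by edgeR. It changed by -1.125 ± 0.18 in the Cpeb1 KO and by -1.165 ± 0.18 in the Double KO (edgeR, adjusted p = 0.225 and 0.377). Here a change of that size thus went uncalled. In footprints 0 members were called against WT and 0 had an unadjusted p below 0.05, beside calls of 0.0581%, 0.0799% and 2.65% of the 13774 genes tested in the same order. The double knockout gave 0 called members against the Cpeb1 KO, where 5.6% of genes were called, and 0 against the Fmr1 KO, where 0.334% were. In the latter Map1a alone had an unadjusted p under 0.05. The pooled comparison of footprints called 0 members and 0% of genes. For translational efficiency 0 members were called in the Fmr1, Cpeb1 and double knockouts, with 0 at an unadjusted p under 0.05, beside 0.0154%, 0% and 0.00768% of 13027 genes. The pooled comparison called 0 members and 0% of genes, and Map1a alone had an unadjusted p under 0.05. DESeq2 called 0 members in every footprint and translational efficiency comparison too. Translational efficiency of Cpeb1 gave -1.089 ± 0.21 in the Cpeb1 KO and -0.99 ± 0.21 in the Double KO, also uncalled (edgeR, adjusted p = 0.344 and 0.9987). The median log2 change of the members was -0.11, -0.06 and -0.02 in RNA of the Fmr1, Cpeb1 and double knockouts against WT, where all genes had 0.02, 0.02 and -0.002. In footprints it was 0.004, 0.02 and 0.05, against 0.004, -0.001 and -0.001 for all genes. These comparisons share the WT libraries. In the 4 comparisons where edgeR called 0 genes, an unadjusted p below 0.05 was reached by 1455 genes in RNA of the Cpeb1 KO, 957 in the pooled footprints, 1237 in translational efficiency of the Cpeb1 KO and 1746 in that of the pooled comparison, and DESeq2 called 45, 4, 13 and 147.

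In both single knockouts values below WT in RNA were more frequent in the first replicate. From the fits, 8 of the 9 genes were below WT in each single knockout, and 6 in the Double KO. Of all genes tested, 54.1%, 53.7% and 49.7% were above WT in the Fmr1, Cpeb1 and double knockouts. Taken by replicate number, replicate 1 of the Cpeb1 KO was below WT replicate 1 for 9 of 9 genes, with a median log2 difference of -0.316, while replicate 2 was below for 2 of 9, with a median of 0.201. In the Fmr1 KO 8 genes were lower in replicate 1 and 5 in replicate 2, with medians of -0.215 and -0.0196. In the Double KO 4 genes were lower in replicate 1 and 6 in replicate 2. In footprints of the Double KO 8 of 9 genes were above WT, with 0 lower in replicate 1 and 6 lower in replicate 2. Of all genes tested there, 49.8% were above WT. These shares of all genes come from the fits. The share of all genes, or of long genes, below WT within a replicate number was not counted. Without Cpeb1 KO library 2, Map1a and Ank3 RNA fell against WT in the Cpeb1 KO, by 0.83 and 0.65 on the log2 scale (edgeR, adjusted p = 0.0319 and 0.0419). Without Cpeb1 KO library 1 the values were -0.08 and 0.08 (edgeR, adjusted p = 0.99 for both). In these fits the lone Cpeb1 KO library is assumed to vary like the other genotypes.

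Long mRNAs in general had lower RNA in the single knockouts, and these genes include some of the longest. In the pooled comparison the 590 other genes of at least 5000 nt had a median of -0.109, and 31.5% of them were higher in the single knockouts. The 1575 genes below 600 nt had a median of 0.16, with 77.6% higher. The 5 members of at least 5000 nt had values of -0.49 for Map1a, -0.23 for Ank3, -0.04 for Map1b and -0.03 for both Apc and Macf1. Map4, at a mean of 804.2 nt, had -0.20 ± 0.10, where the other genes of 600 to 1500 nt had a median of 0.05. With a correction that removes the trend over length from each library, Map1a stayed called at -0.38 ± 0.07 (edgeR, adjusted p = 0.00647), while Ank3 moved to -0.13 ± 0.08 and Map4 to -0.26 ± 0.10 (edgeR, adjusted p = 0.304 and 0.124). In footprints the same length classes had medians between -0.0136 and 0.00625.

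**Figure D3:**
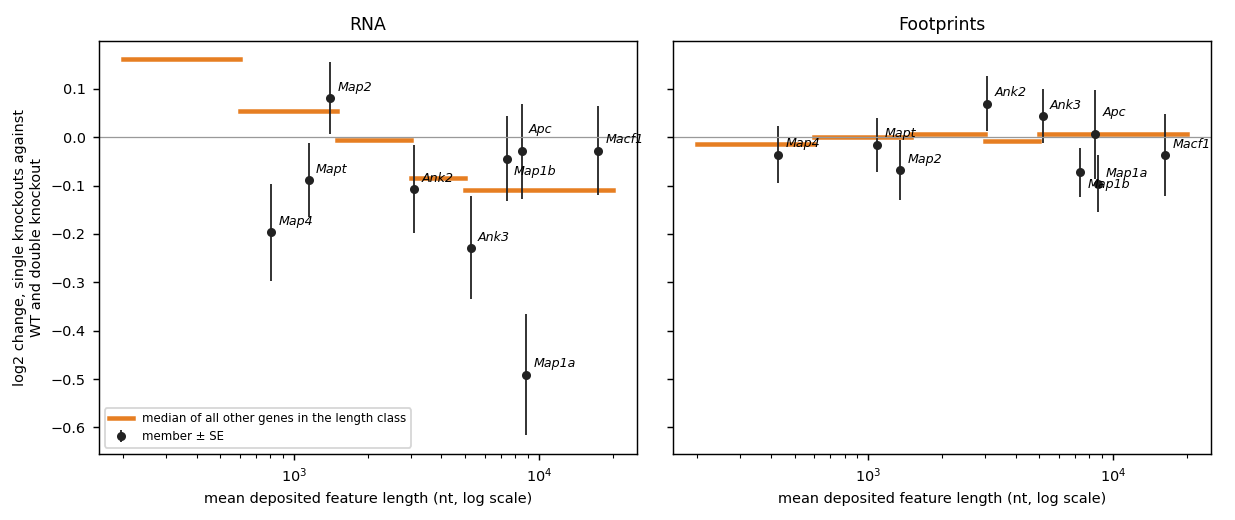
Log2 change ± SE of each gene in the single knockouts against WT and the Double KO, by its mean deposited length (log axis), with the median of the other genes in 5 length classes as orange bars. In RNA the bars fall from 0.16 to -0.109 and Map1a lies below its bar, while in footprints all bars lie near 0.

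Other genes of the microtubule and membrane skeleton were called in the pooled RNA comparison and lower in the single knockouts. Some of the same genes, such as Map1s, Nav2 and Clip3, and some further genes were called in footprints of the Double KO. The lists were chosen with earlier results of these data known, and the calls of the pooled RNA comparison over all genes ranged from 140 to 1433 over the alternatives. Calls in footprints of the Double KO ranged from 31 to 1318 against WT and from 5 to 1987 against the Cpeb1 KO, the lowest without Double KO library 2 and without Cpeb1 KO library 1. Over all genes 7.31% were called in the pooled RNA comparison, in either direction: of 13287 genes 676 fell and 295 rose. Falls were called for 20 of 1575 genes below 600 nt and for 72 of 590 genes of at least 5000 nt, members left out. The lengths of the listed genes were not compared with these classes. In footprints of the Double KO 2.65% of all genes were called against WT and 5.6% against the Cpeb1 KO. Of 18 other structural MAPs and doublecortins found, 2 fell: Map7d1, a kinesin cofactor on microtubules, by 0.54 ± 0.09, and Map1s, the short relative of Map1a and Map1b, by 0.36 ± 0.09 (edgeR, adjusted p = 0.00872 and 0.0246). Map1s footprints rose in the Double KO against WT by 0.42 ± 0.10 (edgeR, adjusted p = 0.0414). Of 17 plus-end binding proteins 4 fell in RNA. Nav2, a neuron navigator, fell by 0.69 ± 0.13, its relative Nav1 by 0.45 ± 0.12, and Clip3, a CLIP family member, by 0.38 ± 0.09 (edgeR, adjusted p from 0.0104 to 0.0374). In footprints of the Double KO against WT 3 of the 17 rose and 2 fell, with Nav2 up by 0.46 ± 0.11 and Clip3 by 0.34 ± 0.07 (edgeR, adjusted p = 0.0469 and 0.0281).

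Of 15 minus-end, severing and destabilising proteins 2 fell in RNA. Camsap3, which caps minus ends, fell by 0.39 ± 0.11 (edgeR, adjusted p = 0.0496). Fignl2, a fidgetin-like AAA protein, fell by 1.69 ± 0.43 from 6 to 17 counts per library in WT and the Double KO to 2 to 5 in the single knockouts (edgeR, adjusted p = 0.0301). Stmn1, the tubulin-sequestering stathmin, rose in footprints of the Double KO, by 0.46 ± 0.08 against WT and 0.52 ± 0.08 against the Cpeb1 KO (edgeR, adjusted p = 0.02 and 0.011). Of 13 genes of the spectrin and ankyrin skeleton 3 fell in RNA: Sptb by 0.40 ± 0.09, Sptbn4, the spectrin of the axon initial segment, by 0.37 ± 0.10, and Nfasc, an ankyrin-bound adhesion protein, by 0.36 ± 0.09 (edgeR, adjusted p from 0.019 to 0.0349). Sptbn4 footprints rose in the Double KO by 0.39 ± 0.08 against WT (edgeR, adjusted p = 0.0329). Of 15 kinases and partners of tau, MAP2 and APC 5 fell in RNA, led by Cdk5r2, an activator of Cdk5, by 0.74 ± 0.11, the tau kinase Ttbk1 by 0.65 ± 0.12 and the kinase Mark4 by 0.48 ± 0.09 (edgeR, adjusted p from 0.0069 to 0.00909). Cdk5r2 footprints rose in the Double KO against WT by 0.47 ± 0.10 (edgeR, adjusted p = 0.0313). In the pooled RNA comparison the median change of the 5 lists lay between -0.114 and 0.0478, where all genes had 0.0262. Ppp1r1b, a marker of striatal neurons, fell by 0.60 ± 0.16 and Gja1, an astrocyte marker, rose by 0.38 ± 0.09 in the same comparison (edgeR, adjusted p = 0.0371 and 0.0264). Gja1 and Slc1a3, markers of astrocytes, and P2ry12, a marker of microglia, fell in footprints of the Double KO against WT, by 0.32 to 0.88. Their part in these calls was not tested.

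The authors' own tests called Map1a in 4 comparisons and no other member in any. The share of all genes called in the authors' tests was not counted. In the authors' deposited table for the pooled RNA comparison Map1a had a log2 change of -0.37 and an adjusted p of 0.00142. The authors' deposited Xtail tables gave its translational efficiency a change of 0.45 in the Fmr1 KO (adjusted p = 6.893e-06) and 0.39 in the Cpeb1 KO (adjusted p = 0.0343). In the authors' deposited table for footprints of the double against the Fmr1 KO it had 0.19 (adjusted p = 0.0371). For Map1b the authors' deposited tables gave 0.05 for translational efficiency in the Fmr1 KO (adjusted p = 0.9999). The translational efficiency calls of Map1a did not recur in edgeR, where the changes were 0.49 ± 0.23 and 0.46 ± 0.23 and the adjusted p-values 0.643 and 0.564.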

How the data were processed

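Mouse cortex RNA-seq and ribosome profiling of 4 genotypes, 2 libraries per genotype and assay, were analysed. The authors deposited expected counts, TPM and lengths per gene in RSEM's format, per the file headers. Per the submitters' processing notes the build was mm10 and cutadapt, Bowtie2, TopHat2, RSEM and DESeq2 were used, and their versions are not given in the sources used here. The authors' deposited comparison tables give a log2 change and adjusted p-values, from DESeq2 or, for translational efficiency, Xtail, per the series' design text.

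Expected counts were rounded. Genes passing filterByExpr (minimum count 10) were fitted by edgeR 4.0.16 under R 4.3.3 (TMM scaling, quasi-likelihood, Benjamini-Hochberg adjustment over all genes), with replicate number as a block. All libraries of an assay shared a fit, and translational efficiency was the interaction of assay and genotype over 16 libraries. The SE is the change divided by the root of the F statistic. Levels are TMM-scaled CPM. Scripts were tested on simulated data. The labels do not say whether libraries are separate animals, so p-values measure the spread between these samples. No 2 libraries agreed within sampling noise (lowest chi-square 3.175 per gene, between library 1 of the Fmr1 KO and of the Cpeb1 KO in RNA-seq).

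Genes named were the 9 members, Fmr1, Cpeb1, up to 3 called genes with the largest change from each of 5 lists, the called cell type markers, and the 3 genes most like Map1b. Pla2g4e was added after its values were seen. A result that the rule would name is not reported here. Members, lists and tests were chosen with earlier results of these data known. Alternatives were DESeq2 1.42.0, no block, other scalings and filters, a length correction, fits of 2 or 4 genotypes, the lysate as a block, and leaving out each library.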

Additional observations from a re-analysis of the deposited data

Results flagged for a closer look

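Map1a RNA was singled out because the pooled comparison bears on whether the effect of losing Fmr1 differs by the presence of Cpeb1. That comparison, a difference between the means of 2 groups of 4 libraries and not the size of the difference in effect, gave -0.491 on the log2 scale (edgeR, adjusted p = 0.0295). In a fit of the 4 genotypes the same contrast gave -0.492 with an adjusted p of 0.0802 (edgeR). Its groups of 4 libraries overlapped, at 1401 to 2169 and 2028 to 2681 CPM. Over all genes the replicate 1 RNA libraries also stood apart along these groups. Chi-square per gene was 3.175 between the single knockouts, 3.81 between WT and Double KO, and 12.2 to 21.2 across the groups. In replicate 2 these were 3.21, 5.99 and 4.68 to 8.41. The 2 RNA libraries of a genotype stood at 5.9 to 9.89. Chi-square grows with depth, so the 2 replicates are not on a like scale. RNA-seq libraries held 8365060 to 10246482 estimated counts in replicate 1 and 5423925 to 6528734 in replicate 2. The part of this separation in the Map1a value was not tested.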

How the results depend on the processing

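For the single members 1926 values under alternatives were computed, of which 7 lost a call (Map1a RNA, pooled), 5 gained one, and 163 changed sign, none of them past 1 SE from 0 in both fits. Of the counts of called members, that for RNA of the Fmr1 KO against WT rose from 0 to 1 (Map1a, -0.58, adjusted p = 0.00482, edgeR) with only these genotypes fitted. The count of the pooled RNA comparison went from 1 to 0 with DESeq2 and with the fit of 4 genotypes, and ran from 0 to 2 over the 8 fits that leave out a library. In the same fits that of RNA of the Cpeb1 KO against WT ran from 0 to 2 and that of footprints of the double against the Fmr1 KO from 0 to 1. Without the replicate block each of the 14 counts of called members stayed as it was, and Map1a RNA in the pooled comparison gave -0.48 (adjusted p = 0.0482, edgeR). The numbers were not shown to pair the libraries: replicate differences of 2 genotypes correlated at -0.0446 to 0.293 in RNA and -0.0748 to 0.334 in footprints. Between RNA and footprints of the same genotype, as paired for baseline translational efficiency, they correlated at 0.0129 in WT. In the Fmr1, Cpeb1 and double knockouts these values were 0.173, 0.118 and 0.11. Over all genes the pooled RNA count was 971, with 274 in the fit of 4 genotypes, 380 without the block and 140 without Fmr1 KO library 1. The footprint counts of the Double KO moved from 365 to between 31 and 1318 against WT, from 772 to between 5 and 1987 against the Cpeb1 KO, and from 46 to between 4 and 762 against the Fmr1 KO. RNA of the Fmr1 KO against WT gave 1 to 401, the Cpeb1 KO 0 to 151 and the Double KO 1 to 24. Footprints of the Fmr1 and Cpeb1 KOs gave 5 to 46 and 3 to 61, and of the pooled comparison 0 to 9. Translational efficiency gave 0 to 13 in the knockouts, and 0 to 244 in the pooled comparison. The spread of baseline translational efficiency between the highest and lowest gene was 5.85 on the log2 scale and 5.17 as a ratio of CPM, an alternative chosen after seeing the data. The causes of these moves were not tested. With 2 libraries per group the RNA intervals are wider than those of the deeper footprint libraries.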
